A study of Rattus norvegicus with 56 samples.

Results

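The genes described here encode the subunits of voltage-gated calcium and sodium channels. A probe was taken as a member where its accession led, through RefSeq, to a rat symbol beginning with Cacna, Cacnb or Cacng and a digit, or of the form Scn, a number and a or b, and the brightest probe stood for each gene. This gave 38 genes from 51 probes, of 16581 genes named on the array. There were 25 calcium channel genes, namely 9 pore-forming alpha1, 4 alpha2delta, 4 beta and 8 gamma subunits, and 13 sodium channel genes, namely 9 pore-forming alpha and 4 beta subunits.

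Expression was measured on 1-colour Agilent arrays in the hippocampus and the parietal cortex of 24 male Long-Evans rats, collected 48 h after intermittent theta burst stimulation (iTBS, magnetic pulses given through a coil over the head in short bursts) or a sham session in which the coil was held away from the head. The young rats were 6 to 7 months old (Y_Sham, 4 animals; Y_iTBS, 4 animals). The aged rats were 26 to 27 months old and had been sorted by water maze performance into aged unimpaired (AU_Sham, 4; AU_iTBS, 5) and aged impaired animals (AI_Sham, 4; AI_iTBS, 3). These groups and the matching of the regions by animal come from the labels, while the study's methods describe fewer aged animals for this experiment. Every group, sham included, was anaesthetised with isoflurane and dexmedetomidine, so no group was free of anaesthesia. Dissected tissue is a mixture of cells, and fewer cells of a type cannot be told apart from less RNA per cell.

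Calcium channels open when the membrane depolarises: the alpha1 subunit forms the pore, the alpha2delta and beta subunits carry it to the membrane and shape its gating, and most of the gamma subunits expressed in brain act instead as partners of AMPA-type glutamate receptors. Sodium channel alpha subunits carry the upstroke of the action potential, and the small beta subunits set their gating and anchoring. Pyramidal cells and interneurons of hippocampus and cortex use different sets of these subunits.

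Signals are given as each array's log2 processed signals turned to z-scores and rescaled by 4.08, the SD of an array on average, so that 0 is the array's own mean and a difference approximates a log2 ratio. Levels of different genes were not compared, since probes differ in their response. A member was tested where its probe was well above background in at least 3 animals, and was called at an adjusted p under 0.05 in limma. Of the 38 members 25 were well above background on all 48 first arrays. Cacna1f, the retinal L-type pore, was detected in 2 of 24 hippocampi and 0 of 24 cortices and was tested nowhere. Cacna1s (1 hippocampus, 14 cortices) and Scn10a (2 and 13) were tested only in cortex, and Cacna2d4 (3 and 0) and Scn4a (7 and 2) only in hippocampus. This left 35 members in each region and 37 for the comparison of regions. Cacng1 (6 and 6), Cacng5 (8 and 5) and Scn11a (6 and 13) were near background in most animals.

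The dissections carried the markers of their labels. Of the 7 hippocampal markers tested, 4 were higher in hippocampus (Klk8 by 7.52) and none in cortex, and of 8 cortical layer markers 6 were higher in cortex (Tbr1, -1.52 as hippocampus minus cortex) and 1, Scnn1a, in hippocampus (0.74). Other cell types differed as well. Of 6 general neuron genes 3 were called higher in cortex (Snap25 by -0.53, Syt1 by -0.56 and Tubb3 by -0.56) and 1, Nefl, in hippocampus (0.51). The mean level of 4 excitatory neuron genes lay between 5.30 and 6.18 in the hippocampi of the 12 sham animals and between 4.51 and 5.30 in their cortices, with 3 of the 4 called higher in hippocampus (Neurod6 by 2.06). The mean level of 7 interneuron genes lay between 4.71 and 5.10 against 5.33 and 5.73, that of 7 oligodendrocyte genes between 6.97 and 7.52 against 6.31 and 7.50, and that of 7 choroid plexus genes between -0.18 and 3.19 against -0.98 and 0.99. Only 2 of 7 slides held first arrays of both regions, and 15 of the 24 animals had both regions scanned in 1 batch, so slide and region could be separated only in part. With slide as a random block 14 of 37 members were called between regions, and within the largest scan batch 19 of 36. The share of all probes called in these settings is not given, so these counts cannot be set against it. The part of the cell type markers in the results below was not tested.

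In the sham animals 20 of 37 members differed between hippocampus and cortex, 8 higher in hippocampus and 12 higher in cortex, where 35.6% of all 33792 probes tested were called (19.1% higher in hippocampus and 16.5% higher in cortex). A member tested in 1 region only had passed the filter through the region where it was brighter, so its difference is given as a description. Of the 33 members tested in both regions 17 were called, 7 higher in hippocampus and 10 in cortex, against 35.9% of the 31353 probes tested in both. Of 24 calcium channel genes tested 6 were higher in hippocampus and 7 in cortex, and of 13 sodium channel genes 2 and 5. These counts include Cacna1s and Scn10a toward cortex and Scn4a toward hippocampus. Each of them had passed the filter only through its brighter region, so the split by channel type is a description. The median size of the difference was 0.51 over the members and 0.24 over all probes, and the median signed difference was -0.04 and 0.03. The repeat arrays of Y_Sham animal 3 that shared 1 slide gave the same direction for all 20 called members, as did its second repeat pair. Those arrays were averaged into that animal's value and had a part in the calls, so their direction is no separate check. In 4 members, Scn3b, Cacng8, Cacnb2 and Scn1a, the sham hippocampi and sham cortices did not overlap at all, against 5.27% of all probes. After normexp background correction differences of bright members were larger, with -1.86 for Scn1a, 1.07 for Cacnb2, 1.05 for Cacna2d3 and -0.68 for Cacng2, and those of dim members smaller, with -0.67 for Cacna1s, -0.53 for Scn10a and 0.36 for Cacng6, all 7 still called. Of these, Cacna1s and Scn10a had passed the filter only through cortex, so their values are a description.

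**Figure D1:**
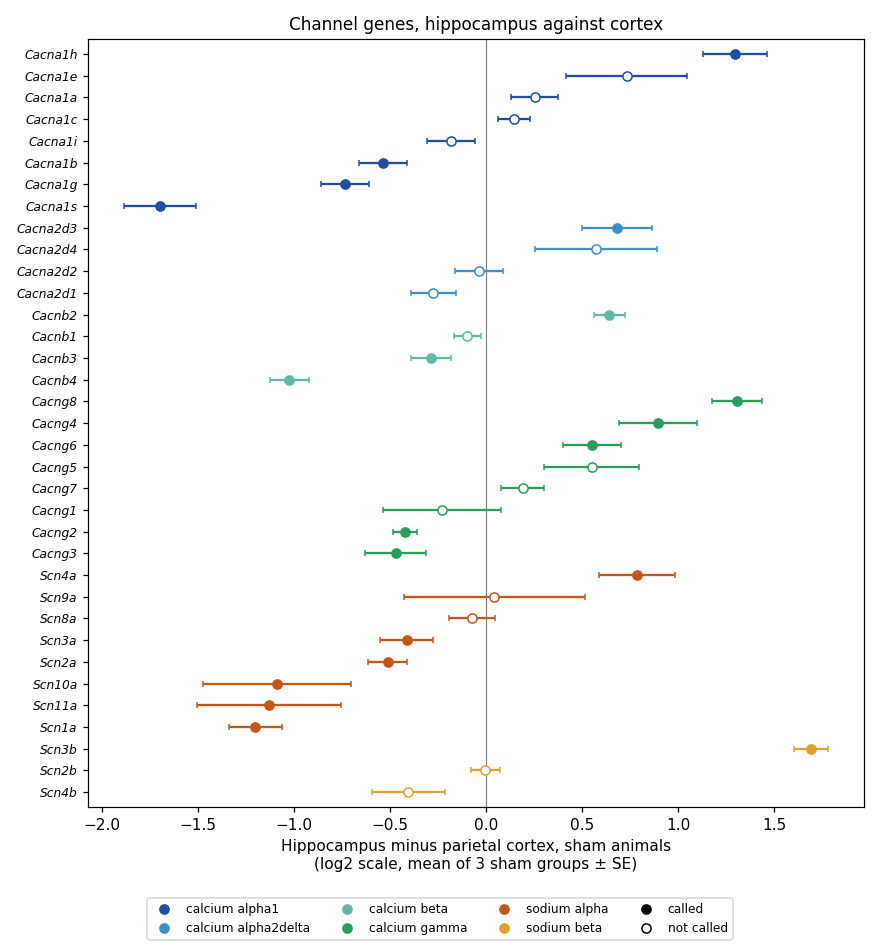
Hippocampus minus cortex in sham animals for 35 of the 37 members tested, as the mean of the 3 sham groups with its SE on a log2 scale, coloured by subunit class (filled, called at adjusted p under 0.05; open, not called). Scn3b, Cacng8 and Cacna1h lie farthest toward hippocampus, and Cacna1s, Scn1a and Scn11a farthest toward cortex, Cacna1s having been detected in 1 of 24 hippocampi.

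Promoter windows are shown for 4 members that were called in every alternative tried, a pair higher in hippocampus (Cacng8 and Cacnb2) and a pair higher in cortex (Cacna1b and Cacng2). Each runs from 250 bases before to 50 after the annotated start in RefSeq (build GRCr8), 5′ to 3′ on the gene's strand, with GGGCGG (the GC box) and TATAAA (the TATA box) in capitals, on either strand. For Cacnb2 the first of 2 windows in the table is shown, and its 2 GC boxes overlap.
Cacng8 (chr1:74690954-74691253, minus strand): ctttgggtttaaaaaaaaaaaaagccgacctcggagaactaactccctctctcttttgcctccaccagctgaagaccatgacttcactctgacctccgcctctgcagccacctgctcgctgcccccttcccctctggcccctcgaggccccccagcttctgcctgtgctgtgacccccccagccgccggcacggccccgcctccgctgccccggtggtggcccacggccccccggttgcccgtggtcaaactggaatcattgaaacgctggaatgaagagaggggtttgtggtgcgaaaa
Cacnb2 (chr17:82472965-82473264, plus strand): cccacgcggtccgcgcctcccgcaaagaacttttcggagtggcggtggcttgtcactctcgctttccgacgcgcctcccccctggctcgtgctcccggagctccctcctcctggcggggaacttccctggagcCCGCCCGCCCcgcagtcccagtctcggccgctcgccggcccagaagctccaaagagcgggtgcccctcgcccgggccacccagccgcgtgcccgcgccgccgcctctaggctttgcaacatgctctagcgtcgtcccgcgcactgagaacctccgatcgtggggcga
Cacna1b (chr3:27944236-27944535, minus strand): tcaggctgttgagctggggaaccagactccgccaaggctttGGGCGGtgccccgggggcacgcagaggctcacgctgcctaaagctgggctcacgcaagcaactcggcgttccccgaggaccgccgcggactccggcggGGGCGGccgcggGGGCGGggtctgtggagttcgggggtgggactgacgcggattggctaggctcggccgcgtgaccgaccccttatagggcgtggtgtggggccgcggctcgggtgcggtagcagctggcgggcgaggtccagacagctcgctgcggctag
Cacng2 (chr7:111577708-111578007, minus strand): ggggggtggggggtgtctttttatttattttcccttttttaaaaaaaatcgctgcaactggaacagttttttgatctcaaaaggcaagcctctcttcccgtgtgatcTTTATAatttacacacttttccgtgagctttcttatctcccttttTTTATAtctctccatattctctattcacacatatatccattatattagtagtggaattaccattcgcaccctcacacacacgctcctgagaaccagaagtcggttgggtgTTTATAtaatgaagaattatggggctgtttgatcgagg

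RefSeq gave a window for 25 of the 38 members, 28 windows in all. GGGCGG stood in 14 of these (50%), against 33.1% of all 33469 promoter windows. Split by direction it was in 3 of 6 windows of genes higher in hippocampus, 4 of 9 of genes higher in cortex and 7 of 13 of the remaining genes. The remaining genes were tested and not called, except Cacna1f, which was not tested and whose window held GGGCGG. All 3 windows of Cacna2d1 held it and are counted singly. TATAAA stood in 2 of the 28 windows (14.2% of all promoters), those of Cacng2 and Cacna1s, both higher in cortex. The cAMP response element TGACGTCA was in none of the 28 and in 1.83% of all promoters. These counts are a description of letters in the windows.

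Among the sodium channel beta subunits Scn3b stood apart. Its signal was 9.03 at lowest, 9.43 at the median and 9.73 at highest in the hippocampi of the 12 sham animals, and 7.20, 7.69 and 8.14 in their cortices. It was higher in hippocampus in 24 of 24 animals, by 1.69 ± 0.09 (SE, 12 sham animals; adjusted p = 4.81e-12, limma), a ratio of 3.23. The mean difference was between 1.43 and 1.95 in each of the 6 groups. None of the other beta subunits passed the test. Scn2b differed by -0.01 and Scn4b, which favours resurgent sodium current, by -0.41 (unadjusted p = 0.0441). Scn4b passed without AU_Sham animal 1 (-0.51) or Y_Sham animal 4 (-0.54), and over the mean of all 6 groups (-0.37).

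Scn1a, whose channel carries much of the sodium current of fast-spiking interneurons, was the sodium alpha subunit farthest toward cortex. It measured 4.38, 4.99 and 5.38 (lowest, median, highest) in sham hippocampus and 5.67, 6.15 and 6.57 in sham cortex, a difference of -1.20 ± 0.14 (SE; adjusted p = 5.1e-07, limma), with 24 of 24 animals lower in hippocampus. The interneuron markers Vip, Pvalb and Sst were lower in hippocampus by -1.83, -0.95 and -0.86, and Gad1 was too (-0.47), while Gad2 (-0.17), Slc32a1 (-0.08) and Lhx6 (0.07) were not called. Their part in the difference of Scn1a was not tested. Scn2a and Scn3a, of pyramidal cell axons and of early development, were also higher in cortex, by -0.51 and -0.41 (hippocampus minus cortex). The call of Scn3a was lost without Y_Sham animal 4 (-0.29), AU_Sham animal 4 (-0.37) or AI_Sham animal 2 (-0.33), and with slide as a block (-0.33). Scn8a, the main pore of mature axon initial segments, differed by -0.07 with an SE of 0.12 and was not called.

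The other sodium pores are best known outside the brain and were measured near background. Scn4a, the skeletal muscle channel, passed the filter only through hippocampus, where its mean was higher by 0.78 ± 0.20 (SE). It ran from -3.43 over -2.65 to -2.22 in sham hippocampus and from -4.43 over -3.58 to -1.74 in sham cortex, and was above background on 5 of 14 hippocampal and 1 of 14 cortical sham arrays. After normexp background correction the difference was 0.09 and not called. Scn10a, which passed the filter only through cortex, and Scn11a, both of pain-sensing neurons, differed by -1.09 and -1.13 and were above background on 4 and 8 cortical arrays of 14 and 1 and 4 hippocampal arrays of 14. Scn10a lost its call without any 1 of Y_Sham 2 (-1.06), Y_Sham 4 (-0.91), AU_Sham 1 (-0.82), AU_Sham 4 (-1.07), AI_Sham 1 (-1.004) or AI_Sham 2 (-1.05), with slide as a block (-1.04) and within the largest scan batch (-0.76). Scn11a lost it without AU_Sham 1 (-0.97), AI_Sham 2 (-1.03) or AI_Sham 4 (-0.95), with slide as a block (adjusted p = 0.0779, limma) and after normexp (-0.36). Scn9a of sensory neurons (0.04) was not called.

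**Figure D2:**
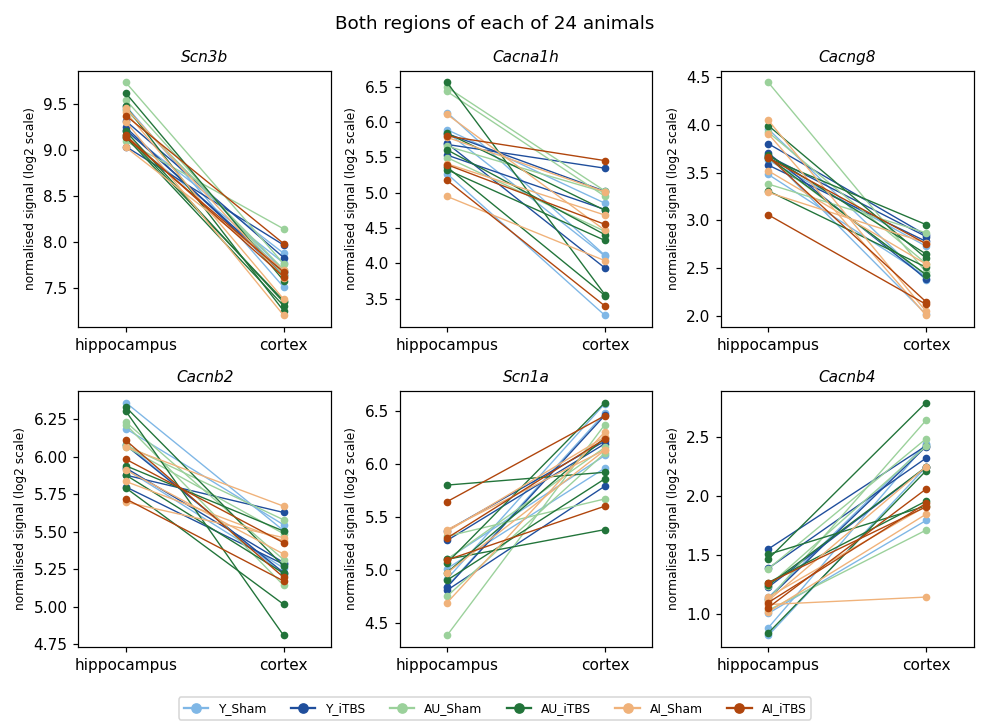
Normalised signal (log2 scale) of 6 members in the hippocampus and the cortex of each of the 24 animals, coloured by group, with a line joining the 2 regions of an animal. All 24 lines fall from hippocampus to cortex for Scn3b, Cacna1h, Cacng8 and Cacnb2, and all 24 rise for Scn1a and Cacnb4.

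The calcium alpha1 subunits went both ways, even among the T-type pores that open near resting potential. Cacna1h was higher in hippocampus by 1.29 ± 0.17 (SE; adjusted p = 3.03e-06, limma), with 4.95, 5.82 and 6.49 (lowest, median, highest) in sham hippocampus and 3.26, 4.58 and 5.02 in sham cortex, and 24 of 24 animals in the same direction. Its paralogue Cacna1g was higher in cortex by -0.73, again in 24 of 24 animals, and the third T-type gene, Cacna1i, differed by -0.18 and was not called. Of the pores that drive transmitter release, the N-type Cacna1b was higher in cortex (-0.54) and the P/Q-type Cacna1a was not called (0.25). Within the largest scan batch Cacna1a was called (0.36, adjusted p = 0.0231, limma). The L-type Cacna1c differed by 0.15 on its brightest probe and was not called, while 1 of its other 2 probes was (0.42, adjusted p = 0.0305).

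Cacna1e, the R-type pore, differed by 0.73 and was not called. One cortex, that of Y_Sham animal 4, lay at -4.21, the other 11 sham cortices lying between 0.01 and 1.29, and without that animal the difference was 0.33. Without Y_Sham animal 1 it was 0.92 and called (adjusted p = 0.0305, limma). Within the largest scan batch it was 1.34 and called (adjusted p = 0.0268, limma), and after normexp it was 0.70 and called (adjusted p = 0.0328, limma). Cacna1s, the pore of skeletal muscle, passed the filter only through cortex, and its mean was lower in hippocampus by -1.70 ± 0.19 (SE) at dim signals. It ran from -4.76 over -3.97 to -3.38 in sham hippocampus and from -3.54 over -2.29 to -1.54 in sham cortex. It was above background on 1 of 14 hippocampal and 7 of 14 cortical sham arrays, and after normexp the difference was -0.67.

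Beta subunits of the calcium channel also went both ways. Cacnb2 was higher in hippocampus, with 5.70, 6.07 and 6.36 in sham hippocampus and 5.14, 5.45 and 5.67 in sham cortex, a difference of 0.64 ± 0.08 (SE; adjusted p = 2.25e-06, limma). Its second probe gave 0.81 (adjusted p = 4.66e-05). Cacnb4, whose loss causes ataxia and seizures in mice, was higher in cortex by -1.03 ± 0.10 (SE; adjusted p = 6.08e-08, limma), with 0.82, 1.10 and 1.38 against 1.15, 2.24 and 2.64. Both kept their direction in 24 of 24 animals. Cacnb3 was called at -0.29 (adjusted p = 0.0346), a call that was lost under 75th percentile scaling (-0.24), quantile scaling (-0.15) and the authors' z-scores (-0.23), within the largest scan batch (-0.11), with slide as a block (-0.34, adjusted p = 0.0549, limma), and without Y_Sham 1 (-0.24), AU_Sham 1 (-0.18), AI_Sham 1 (-0.26) or AI_Sham 2 (-0.28). Cacnb1 at -0.10 was not called.

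Of the alpha2delta subunits only Cacna2d3 passed the test, at 0.68 ± 0.18 (SE; adjusted p = 0.00605, limma), with 3.34, 4.14 and 4.46 in sham hippocampus and 2.88, 3.33 and 4.00 in sham cortex. Those ranges overlapped, and 10 of 12 sham animals were higher in hippocampus, and with slide as a block the adjusted p was 0.0557. The gabapentin-binding Cacna2d1 (-0.27, adjusted p = 0.0754, limma) and Cacna2d2 (-0.04) were not called. Cacna2d1 passed without AI_Sham animal 4 (-0.33) or AU_iTBS animal 4 (-0.27), over the mean of all 6 groups (-0.28) and without pairing by animal (-0.27). Cacna2d4 (0.57) was not above background on any of the 14 cortical sham arrays and on 2 of the 14 hippocampal ones. It was called without Y_Sham animal 4 (0.82, adjusted p = 0.0333, limma).

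Among the gamma subunits the AMPA receptor partners differed in direction. Cacng8, the main such partner of hippocampal pyramidal cells, was higher in hippocampus by 1.31 ± 0.13 (SE; adjusted p = 7.1e-08, limma), with 3.29, 3.67 and 4.44 in sham hippocampus and 2.01, 2.44 and 2.87 in sham cortex, and Cacng4 was higher there by 0.89. Over the mean of all 6 groups Cacng4 gave 0.59, its mean difference in AU_iTBS being -0.02. The levels of the excitatory neuron genes moved with region as well, and their part in these values was not tested. Cacng2 (stargazin) and Cacng3 were higher in cortex, by -0.42 and -0.47. Cacng3 ran from 3.96 over 4.55 to 5.21 in sham hippocampus and from 3.95 over 4.99 to 5.79 in sham cortex (SE of the difference 0.16; adjusted p = 0.0256, limma), with 8 of 12 sham animals lower in hippocampus. Its call was lost without Y_Sham 3 (-0.41), AU_Sham 1 (-0.41), AI_Sham 1 (-0.41) or AI_Sham 3 (-0.43), after normexp (-0.53) and within the largest scan batch (-0.32). Cacng6, a muscle-type gamma subunit, was higher in hippocampus, a call lost with slide as a block (0.55, adjusted p = 0.0598, limma). Cacng5 (0.55), Cacng7 (0.19) and Cacng1 (-0.23) were not called. Cacng5 passed without Y_Sham animal 4 (0.68), after normexp (0.24), over the mean of all 6 groups (0.43) and without pairing by animal (0.55).

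In 11 members more than 1 probe was named, giving 13 further probes. Of these 11 had the sign of the brightest probe, and the exceptions were the second probe of Cacna1a (-0.19, not called) and the third of Cacnb1 (0.35, adjusted p = 0.0157). Probes differed in their call in 4 genes, Cacna1b, Cacna1c, Cacnb1 and Scn3a, whose second probe gave -0.07. Probes of a gene can lie in different transcripts, and the table used here did not give their place.

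Of 24 tested genes that bind or steer these channels 11 were called between regions, 4 higher in hippocampus and 7 in cortex, beside 35.6% of all probes. Rem2, a small GTPase that inhibits calcium channels, had the largest difference toward hippocampus (2.44 ± 0.13, SE; adjusted p = 6.05e-12, limma). Next were Fgf13 (0.64), an intracellular FGF bound to sodium channels, Rimbp2 (0.51), which ties calcium channels to release sites, and the kinase gene Camk2a (0.38). Among the 7 toward cortex were Cabp1 (-1.02 ± 0.10, SE; adjusted p = 8.82e-08, limma), a calcium-binding regulator of channel inactivation, then Fgf12 (-0.71), Fgf14 (-0.56), Rims2 (-0.56), Rims1 (-0.46) and Sptbn4 (-0.23).

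No member was called for stimulation. In hippocampus 0 of 35 members passed for young iTBS against sham, aged iTBS against sham, AU iTBS against sham or AI iTBS against sham, where 0% of all 32522 probes were called in each. At an unadjusted p under 0.05 there were 2 members for young iTBS (4.56% of all probes), 2 for aged iTBS (2.47%), 0 for AU iTBS (2.26%) and 0 for AI iTBS (1.95%). In cortex 0 of 35 members were likewise called, with 0% of all 32623 probes called for young, aged and AU iTBS and 0.00613% (2 probes) for AI iTBS. At an unadjusted p under 0.05 there were 1 member for young iTBS (2.71%), 1 for aged iTBS (2.95%), 7 for AU iTBS (8.37%) and 3 for AI iTBS (4.11%). A selection rule was also rebuilt here from the thresholds in the study's methods. By that rule the count of members was 0 in 7 of these comparisons and 1 for AI iTBS in cortex (0.0592% of all probes). In hippocampus it selected 0.101%, 0.00439%, 0.00439% and 0.0329% of all probes for young, aged, AU and AI iTBS. In cortex it selected 0.0461%, 0.00439% and 0.0526% for young, aged and AU iTBS. For young iTBS these were 46 probes in hippocampus and 21 in cortex, and for aged iTBS 2 in each region. The study itself lists more genes than that for young and aged iTBS in each region. Which members the study's own selection held was not tested.

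In the hippocampus of young rats Cacnb4 had the smallest p. It measured 0.82, 0.89, 1.01 and 1.14 in the Y_Sham animals and 1.13, 1.23, 1.39 and 1.55 in the Y_iTBS animals, so that the groups met only at their edges. The difference was 0.36 ± 0.13 (SE; unadjusted p = 0.0104, adjusted p = 0.929, limma). Cacna2d4 differed by -2.19 (unadjusted p = 0.0194), and here 2 sham hippocampi held the difference: the Y_Sham animals lay at 0.72, -2.38, -4.58 and -4.98 and the Y_iTBS animals between -5.12 and -4.80. Without the animal at 0.72 the probe was no longer detected in enough animals to be tested. In the same comparison the 7 choroid plexus markers all had lower means after iTBS (median -0.85, 0 called), their mean level running from 0.69 to 2.09 in Y_Sham and from -0.72 to 0.94 in Y_iTBS. The mean level of 6 striatal genes ran from 2.31 to 2.75 in Y_Sham and from 2.91 to 3.05 in Y_iTBS, with no overlap, 5 of the 6 higher after iTBS, 3 at an unadjusted p under 0.05 and 0 called (median 0.40). The part of both lists in the values of Cacnb4 and Cacna2d4 was not tested.

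In aged hippocampus Scn2b, a beta subunit joined to the pore by a disulfide bond, was lower after iTBS by -0.27 ± 0.11 (SE; unadjusted p = 0.0219, adjusted p = 0.98, limma). It lay between 8.69 and 9.39 in AU_Sham and between 8.64 and 9.23 in AU_iTBS, and between 8.99 and 9.22 in AI_Sham and between 8.65 and 9.05 in AI_iTBS, with 7 of 8 stimulated animals below the mean of their sham group. Cacng5 differed by -0.44 (unadjusted p = 0.0431). Within AU rats the smallest p was that of Cacng2 (-0.24, unadjusted p = 0.0869) and within AI rats that of Scn2b (-0.33, unadjusted p = 0.0505).

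In cortex the members named here for young, aged and AI iTBS were dim or rested on few animals. For young iTBS Cacna1e differed by 1.80 ± 0.74 (SE; unadjusted p = 0.0236, adjusted p = 1, limma): the Y_Sham cortices lay at 1.08, 0.74, 0.21 and -4.21 and the Y_iTBS cortices between 0.88 and 1.78, and without the animal at -4.21 the difference was 0.58. For aged iTBS Scn10a differed by 1.54 ± 0.58 (SE; unadjusted p = 0.0143, adjusted p = 0.999, limma). It measured -4.24, -3.93, -3.88 and -0.45 in AU_Sham, -4.70, -4.29, -3.33 and -2.78 in AI_Sham, -4.15, -2.57, -2.55, -1.66 and -1.62 in AU_iTBS and -2.88, -1.64 and 0.62 in AI_iTBS. Both aged groups overlapped their sham animals, 1 AU_Sham cortex lying above every AU_iTBS cortex. For AI iTBS alone Scn10a gave 2.47 (unadjusted p = 0.00966) and Cacng1 -1.26 (0.0377).

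The 7 members at an unadjusted p under 0.05 for AU iTBS in cortex were Scn3b, Cacna1s, Cacna1g, Scn9a, Scn2a, Cacnb1 and Scn2b. The smallest p belonged to Scn3b, at 7.25, 7.31, 7.35, 7.36 and 7.58 in AU_iTBS and 7.64, 7.70, 7.76 and 8.14 in AU_Sham. The groups did not overlap, and the difference was -0.44 ± 0.13 (SE; unadjusted p = 0.00353, adjusted p = 0.579, limma). In the same comparison Scn2a (-0.44), Scn2b (-0.41), Cacnb1 (-0.36) and Scn9a (-1.27) were lower after iTBS and Cacna1g (0.63) and Cacna1s (0.72) higher, none of them past the adjusted threshold. The AU_Sham animals are also the reference of the AI sham against AU sham comparison in cortex, where Scn3b (-0.34), Scn2a (-0.45) and Scn9a (-1.34) were lower too, so these values share their control animals.

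Scn3a and Cacng3 are members that the study's text names. It lists Scn3a among genes studied in epilepsy, with no model or region given. Cacng3 appears there among genes altered in cultured hippocampal neurons, a different model from the tissue measured here. Scn3a differed by -0.01 and 0.04 in hippocampus for young and aged iTBS and by -0.01 and -0.09 in cortex, and Cacng3 by 0.04 and -0.07 in hippocampus and 0.39 and 0.05 in cortex. Among these 8 values the smallest unadjusted p was 0.213.

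The response to iTBS was also compared directly between ages and regions. For the aged minus young iTBS effect 0 of 35 members were called in either region (0% of all probes in both), with 1 member at an unadjusted p under 0.05 in hippocampus, Cacna2d4 (2.36; 4.27% of all probes), and 1 in cortex, Cacna1h (-1.10, unadjusted p = 0.0378; 3.21% of all probes). Cacna1h was higher on average after iTBS in young cortex (3.93, 4.76, 5.02 and 5.35 against 3.26, 4.10, 4.11 and 4.85 in Y_Sham) and lower in AU cortex (3.54, 3.56, 4.32, 4.41 and 4.75 against 4.45, 4.95, 5.01 and 5.02), while the means were near each other in AI cortex (3.40, 4.55 and 5.45 against 4.04, 4.47, 4.68 and 5.01). For the young iTBS effect, hippocampus minus cortex, 0 of 37 members were called (0%) and 0 had an unadjusted p under 0.05 (2.66% of all probes). For the aged iTBS effect, hippocampus minus cortex, 0 were called (0%) and 1, Scn10a (-1.83, unadjusted p = 0.014), had an unadjusted p under 0.05 (2.26% of all probes). Scn10a had passed the filter only through cortex and was near background in most hippocampi, so this value is a description.

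**Figure D3:**
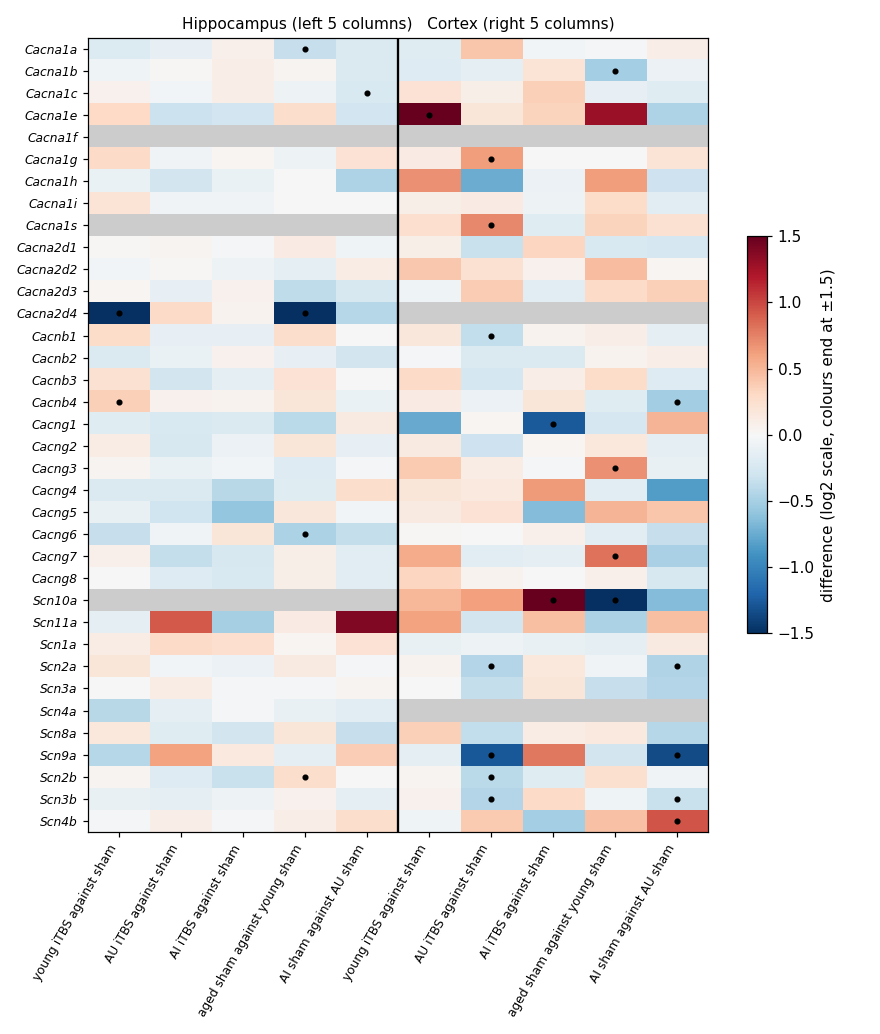
Differences (log2 scale; red higher and blue lower in the first-named group, colours ending at ±1.5) of 36 of the 38 members in 5 comparisons of hippocampus and the same 5 of cortex; dots mark an unadjusted p under 0.05 and grey a member not tested. No comparison holds a called member, and dots are most frequent in AU iTBS against sham in cortex, with 7.

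Age and memory status left the members without a call as well. For aged sham against young sham 0 of 35 members were called in hippocampus (0.00307% of all probes, 1 probe) and 0 of 35 in cortex (0.104%, 34 probes). In hippocampus 4 had an unadjusted p under 0.05 (8.21% of all probes): Cacna1a (-0.34), Cacna2d4 (-1.97), Cacng6 (-0.47) and Scn2b (0.27). The smallest p, 0.0156, was that of Cacna2d4, whose Y_Sham values are given above and which ran from -5.15 to -3.58 in the aged sham animals. The aged sham hippocampi are also the reference of aged iTBS against sham, where Scn2b was lower, so both values of Scn2b share these animals.

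In cortex the members with an unadjusted p under 0.05 were again 4 (9.43% of all probes), led by Cacng7, an atypical AMPA receptor partner. It measured 0.32, 0.50, 0.58 and 0.72 in Y_Sham, 1.31, 1.34, 1.69 and 1.99 in AU_Sham and 0.73, 1.13, 1.13 and 1.41 in AI_Sham. Every aged sham cortex lay above every young one, by 0.81 ± 0.24 on average (SE; unadjusted p = 0.00323, adjusted p = 0.318, limma). Cacng3 differed by 0.69, Cacna1b by -0.51 and Scn10a by -1.61. The aged sham cortices are also the reference of aged iTBS against sham, where Scn10a was higher, so both values of Scn10a share these animals. The aged minus young sham difference between regions was tested for 37 members: 0 were called (0.00296% of all probes) and 5 had an unadjusted p under 0.05 (6.45%), Scn10a (2.65, unadjusted p = 0.00404), Cacng7 (-0.72), Cacng3 (-0.88), Cacna2d2 (-0.59) and Scn4a (0.88). Scn10a had passed the filter only through cortex and Scn4a only through hippocampus, with most arrays of the other region near background. Their values here are a description.

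**Figure D4:**
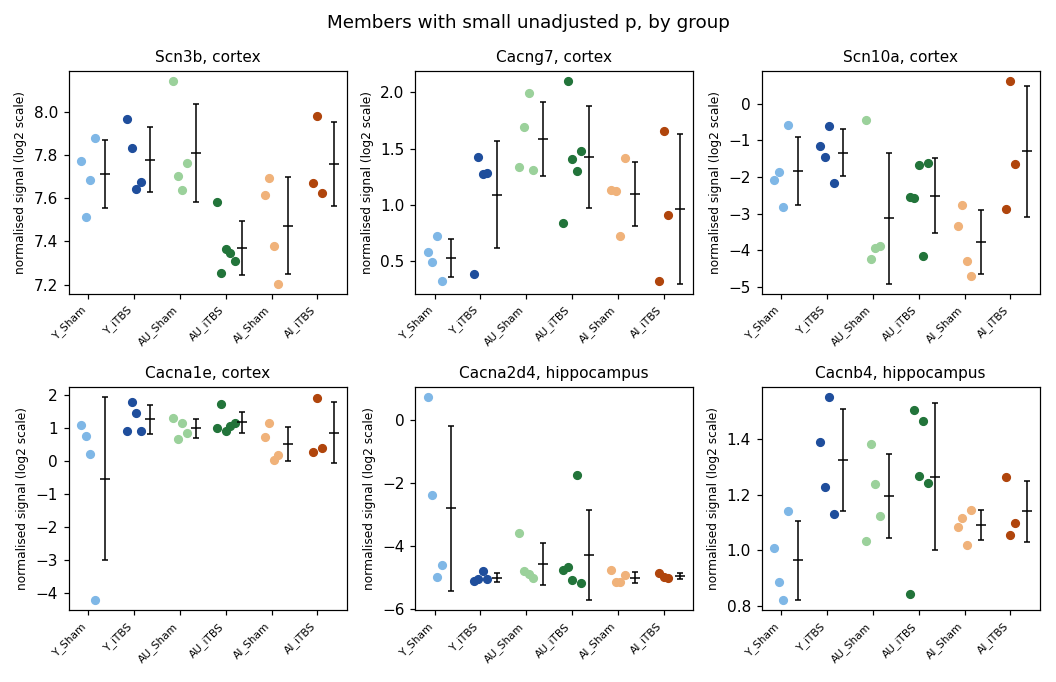
Normalised signal (log2 scale) of 6 member and region pairs in every animal of the 6 groups, with the group mean and SD in black. Cacng7 in cortex lies between 0.32 and 0.72 in Y_Sham and at 0.73 or above in both aged sham groups, and Cacna1e and Cacna2d4 show single Y_Sham animals far from the rest.

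Between AI sham and AU sham 0 members were called in hippocampus (0% of all probes) and 0 in cortex (0%). In hippocampus 1 member had an unadjusted p under 0.05 (4.01% of all probes), Cacna1c, at 3.33, 3.40, 3.43 and 3.45 in AI_Sham and 3.49, 3.51, 3.53 and 3.98 in AU_Sham, a difference of -0.22 ± 0.10 (SE; unadjusted p = 0.0437, adjusted p = 1, limma) with no overlap. In cortex there were 5 (6.41% of all probes): Scn9a, of the smallest p (0.0191), Scn2a, Scn3b, Scn4b (0.94) and Cacnb4 (-0.53). Scn9a lay between -3.23 and -2.47 in AI_Sham and at -2.44, -1.85, -1.46 and 0.27 in AU_Sham. The oligodendrocyte list was 6.73 on average in AU_Sham cortex and 7.07 in AI_Sham cortex, and its part in these values was not tested.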

How the data were processed

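Total RNA of 48 tissue samples was hybridised by the authors to 1-colour Agilent rat arrays and read with Feature Extraction 12.0.3.1 per the file headers; 7 technical repeats and 1 array whose labels contradict each other, left out here, made 56 arrays. The deposited values were processed signal intensities per spot, with median signal and background intensities, and a table of the authors' z-scores (a score per probe and array), which lay within 0.0050 of the z-scores recomputed here. Depth has no meaning for arrays, whose number limits the precision; 59.4% to 69.7% of probes were well above background.

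Spots flagged as outliers were left out, copies of a probe averaged, and log2 processed intensities z-scored per array over non-control probes and multiplied by the mean SD. Repeats were averaged with the first array, except the cortex repeat of AI_iTBS animal 2, which correlated with its own first array at -0.0318 and with that of AI_Sham animal 2 at 0.406 over the 1000 most variable probes. Of 45598 distinct probes 46.3% were named through RefSeq, by accession without version. Group means of 24 animals were fitted in limma 3.58.1 (R 4.3.3) over 32522 probes of hippocampus, 32623 of cortex and, on differences within animals, 33792 for both, with Benjamini-Hochberg adjustment. The regional contrast was the mean of the 3 sham groups, paired by animal. Aged means the average of the AU and AI contrasts. Replicate numbers did not mark litters or days. In AI cortex numbers 1, 2 and 3 of sham and iTBS animals deviated together (r = 0.363, 0.387 and 0.136), and in the other comparisons not all did. With replicate number as a block no member was called in the iTBS, age and status comparisons, as in the main fit. The block was not applied to hippocampus against cortex, so the calls there were not tested by it.

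Members and gene lists were chosen with earlier results of these data known, by a rule that names the members, and in each comparison the called members, the one of smallest p and those at an unadjusted p under 0.05. The normexp alternative (offset 50) used median signals, since no mean signals were given. Some genes, among them 2 members, are not reported by name here, and counts include them. Scripts were tested on simulated data.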

Additional observations from a re-analysis of the deposited data

Results flagged for a closer look

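In 147 groups of 4 or 5 animals, over 27 members, 11 held 1 animal set apart from the others by Dixon's criterion, which chance alone meets in about 1 group of 20. In cortex these were Cacna1h in AU_Sham 1 (4.453, the others from 4.949 to 5.025), Cacna1s in Y_Sham 4 (-3.542, the others from -2.36 to -2.203), Cacnb2 in Y_iTBS 4 (5.628, the others from 5.226 to 5.294) and Cacng8 in Y_iTBS 1 (2.39, the others from 2.78 to 2.846). Cacna1e in Y_Sham 4 lay at -4.214 with the others from 0.2057 to 1.079, Scn10a in AU_Sham 1 at -0.4492 with the others from -4.239 to -3.876, and Scn2a in AI_Sham 2 at 7.83 with the others from 7.169 to 7.208.

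In hippocampus the animals set apart were AU_iTBS 3 for Scn1a (5.801, the others from 4.902 to 5.1), AI_Sham 3 for Cacng5 (-1.687, the others from -2.896 to -2.79), AU_Sham 1 for Cacna2d4 (-3.583, the others from -5.003 to -4.781) and AU_Sham 3 for Cacna1c (3.981, the others from 3.485 to 3.531).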

How the results depend on the processing

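Each of 101 results was recomputed under 31 to 39 alternatives. Of the 20 members called between regions 12 passed in every alternative run: Cacna1b, Cacna1g, Cacna1h, Cacna1s, Cacnb2, Cacnb4, Cacng2, Cacng4, Cacng8, Scn1a, Scn2a and Scn3b. Cacna1s had passed the detection filter only through cortex, where it was brighter, so its place here is a description. The alternative over all probes of a gene took the smallest adjusted p among them, so no call could be lost there. The second probe of Cacna1b (-0.33) was not called by itself. The count was 14 with slide as a block and where detection in all animals was required (25 tested). It was 23 over the mean of all 6 groups, and 22 with the sham hippocampi and cortices fitted as independent, without pairing by animal. Without AI_iTBS 2 and AI_Sham 2, an alternative chosen after seeing the data, it was 17, and with 1 animal left out between 16 and 21. The share of all probes called in each of these alternatives is not given, so these counts describe the members only. In the other 17 comparisons limma called 0 members in every alternative, the replicate block included (0), and the selection rule rebuilt from the study's methods called 1 for AI iTBS in cortex. The cause of these changes was not tested. The number of arrays limits the precision, and dim probes have uncertain differences.

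Values that changed sign were small and not called, but for Cacnb1 over all its probes between regions (0.06959, where its probe of smallest p had an adjusted p of 0.0157). In hippocampus Cacng3 for young iTBS was -0.009343 with scan batch as a block and ran from -0.1275 to 0.1916 with 1 animal left out, and Scn3a was 0.01011 by quantile scaling, 0.005612 after normexp, 0.03531 and 0.01685 with scan batch and slide as blocks, 0.06389 over all its probes and from -0.07889 to 0.05015 with 1 animal left out. For aged iTBS there Cacng3 was 0.08045 without AI_iTBS 2 and AI_Sham 2 and ran from -0.1688 to 0.05287, and Scn3a from -0.003278 to 0.07764. Cacng2 for AU iTBS was 0.0059 with slide as a block. In cortex Scn3a for young iTBS was 0.3105 after normexp, 0.02417 over all its probes and from -0.1746 to 0.3286 with 1 animal left out. For aged iTBS Cacng3 was -0.0363 under the replicate block, -0.05252 with scan batch and -0.2347 with slide as a block and from -0.05915 to 0.1497 with 1 animal left out, and Scn3a was 0.1027 with slide as a block and 0.05174 over all its probes.

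Between regions, the largest scan batch gave 0.02668 for Cacna1i, 0.09037 for Cacna2d2, 0.005369 for Scn8a and -0.09912 for Scn9a. Quantile scaling gave 0.04261 for Cacnb1, 0.1224 for Scn2b and -0.02745 for Scn9a, and 75th percentile scaling 0.057 for Scn2b and -0.04814 for Scn9a. Normexp gave 0.09575 for Scn8a and -0.1129 for Scn9a, all probes 0.06959 for Cacnb1, and the authors' z-scores 0.0107 for Scn2b. The mean of all 6 groups gave 0.005569 for Scn2b, and leaving out AI_iTBS 2 and AI_Sham 2 0.04042 for Scn2b and 0.006124 for Scn8a. With 1 animal left out the ranges were -0.154 to 0.03047 for Cacna2d2, -0.05715 to 0.04042 for Scn2b, -0.1314 to 0.006124 for Scn8a and -0.1811 to 0.2724 for Scn9a.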

Other observations

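One array carried labels that contradict each other and entered no group. Its signals lay inside the range of the 24 hippocampi for all 10 members with the leading regional differences, and inside that of the 24 cortices for 4 of them (Cacna1s, Cacnb4, Cacng3 and Scn4a). Scn3b was 9.232 there, against 9.029 to 9.733 in hippocampus and 7.204 to 8.143 in cortex, and Scn1a was 5.095, against 4.38 to 5.801 and 5.381 to 6.582.

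The cortex repeat of AI_iTBS animal 2, which was not averaged with its first array, measured 4.692 for Cacna1h where the first array gave 5.454 and AI_Sham animal 2 gave 4.683. For Scn1a the same arrays gave 6.19, 5.602 and 6.132, and for Scn4a -4.802, -3.124 and -2.991.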
